A study of Mus musculus with 16 samples.

Results

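Messenger RNA of P19CL6 cells after 10 days in DMSO was compared with that of the same line kept in growth, across all genes named by a single-gene probe set. P19CL6 is a subline of the mouse P19 embryonal carcinoma, a tumour-derived line of pluripotent cells, and forms beating cardiac muscle when it is cultured in dimethyl sulfoxide (DMSO). The arrays were chosen by their labels, 6 of the 16 of the study. The day 10 group was 3 cultures (replicates A, B and C) plated in alpha-MEM medium with 10% fetal bovine serum and 1% DMSO, with fresh medium every 48 h. The growth group was 3 cultures (A, B and C) of undifferentiated cells held without DMSO in alpha-MEM with 10% serum of embryonic stem cell grade by passage every 48 h. Total RNA was hybridized as biotin-labelled cRNA to Affymetrix arrays. The study also has arrays of days 4, 6, 8 and 12 in DMSO, of which days 8 and 12 are used below as neighbours in time. Per the study's design the cultures within each group were independent, and all came from 1 cell line, so p-values measure the spread between cultures of that line. No culture was kept for 10 days without DMSO, and the grade of serum was stated only for growth. The effects of DMSO, of time without passage and of serum thus cannot be told apart.

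Background on the system is as follows. Embryonal carcinoma cells hold their undifferentiated state through a network of transcription factors around Pou5f1, Sox2 and Nanog and through Nodal and FGF signalling. Cardiac muscle arises in the embryo from mesoderm, where BMP signals and the GATA, T-box, Hand and Mef2 transcription factors switch on the genes of the sarcomere, the repeating unit of thick myosin and thin actin filaments that contracts when calcium binds the troponin complex. The first heart muscle of the mouse embryo uses atrial, slow skeletal and smooth muscle forms of several contractile proteins next to the adult cardiac ones.

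The 45101 probe sets of the table were log2 signals after GCRMA, and 40.6 to 41.3% of them lay above a dim cutoff of log2 4 on the day 10 arrays and 39.6 to 40.5% on the growth arrays. Levels are given as log2 signal, for 3 arrays in the order A, B and C. A gene was tested if 1 of its probe sets exceeded the cutoff on at least 2 of the 16 arrays, which left 10802 genes. A gene was called higher or lower at a Benjamini-Hochberg adjusted p under 0.05 in limma, over all tested genes, and a difference of at least 1 log2. Over the tested genes, correlations were 0.975 to 0.985 among the day 10 arrays, 0.978 to 0.988 among the growth arrays and 0.77 to 0.8 between the groups. The 3′ minus 5′ difference of the Actb control probe sets, a measure of RNA integrity, was 0.941 ± 0.335 log2 at day 10 and 0.911 ± 0.044 in growth (SD, n = 3 each, two-sided exact permutation p = 1, adjusted p = 1 over 5 controls). The other 4 controls had exact p = 0.4 to 0.8, where 3 arrays against 3 cannot give a p below 0.1.

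Differences between day 10 and growth were spread over a large share of the tested genes. In all, 2003 genes were higher (18.5% of those tested) and 2104 were lower (19.5%), together 4107 or 38%. These shares are the background for every count of a gene group given here. The median difference over all tested genes was -0.02 log2, which normalization between arrays tends to hold near 0. Large differences were mostly rises: 247 genes were higher by at least 4 log2 and 97 were lower by as much. Of the genes called higher, 501 were dim on all 3 growth arrays, and of those called lower 376 were dim on all 3 day 10 arrays. For such genes the fold was computed against log2 4 and is given as at least that. In RNA of a whole culture, more cells of a type and more RNA per cell cannot be told apart.

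**Figure D1:**
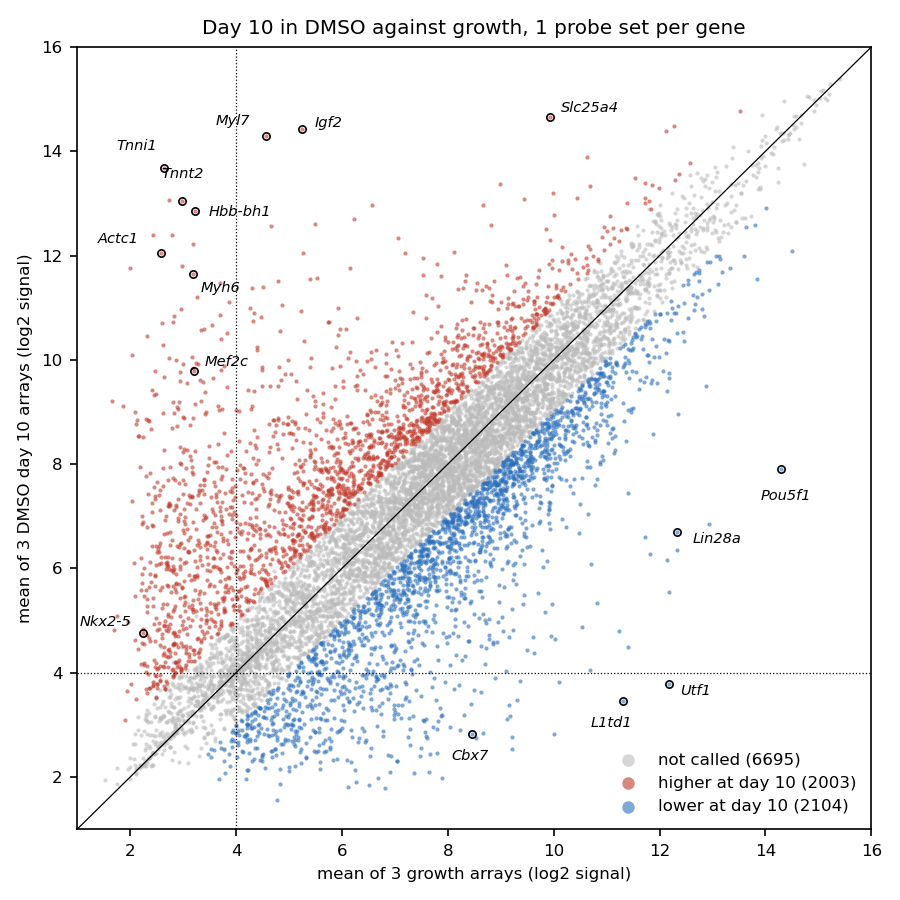
Mean log2 signal of the 3 day 10 arrays (vertical axis) against that of the 3 growth arrays (horizontal axis) for the 10802 tested genes, with equality as a diagonal and the dim cutoff of log2 4 dotted. Red points are the 2003 genes called higher at day 10 and blue points the 2104 called lower. Muscle genes such as Tnni1 and Tnnt2 lie at the upper left, dim in growth and near the top of the scale at day 10, and Utf1, L1td1 and Cbx7 lie at the lower right.

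Most genes of the contractile apparatus were higher at day 10, and many of those were dim on every growth array. The dim ones were 10 of 13 rises in the thick filament list, 6 of 10 in the thin filament list and 13 of 21 in the Z-disc list. Myl7, the atrial regulatory light chain of myosin, was at 14.52, 14.30 and 14.08 on the day 10 arrays, against 5.04, 4.85 and 3.79 on the growth arrays. Tnnt2, cardiac troponin T, was at 13.29, 12.90 and 12.94 on the day 10 arrays, against 3.03, 2.95 and 2.98 on the growth arrays. The thin filament actin Actc1 was at 12.06, 12.20 and 11.87 on the day 10 arrays, against 2.70, 2.84 and 2.23 on the growth arrays. For each of these 3 markers of cardiac muscle the lowest day 10 array was far above the highest growth array, and all growth arrays of Tnnt2 and Actc1 were dim. Myh6, the alpha myosin heavy chain, was at 11.84, 12.13 and 10.99 on the day 10 arrays, against 3.27, 3.14 and 3.15 on the growth arrays (at least 201-fold higher, adjusted p = 1.94e-07).

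Of 14 tested genes of the thick filament and its regulators, 13 were higher at day 10 and 0 were lower, with a median difference of 4.11 log2 beside -0.02 for all tested genes. They included myosin binding protein C, Mybpc3, at 10.06, 9.91 and 10.11 at day 10 and 2.75, 2.73 and 2.74 in growth (at least 65.3-fold higher), the giant spring protein titin, Ttn (at least 29.6-fold higher), and the M-line protein myomesin, Myom1 (at least 12.7-fold higher). Of 15 tested thin filament genes, 10 were higher, with a median of 3.21 log2. Both forms of troponin I were high. Tnni1, the slow skeletal form that the embryonic heart uses, was at 13.65, 13.69 and 13.67 at day 10 and 2.92, 2.73 and 2.26 in growth. Tnni3, the adult cardiac form, was at 9.82, 8.81 and 9.35 at day 10 and 2.48, 2.47 and 2.43 in growth. Both were dim on every growth array. Tnnc1, the calcium-binding troponin C of heart and slow muscle, averaged 8.77 ± 0.19 at day 10 and 4.96 ± 0.48 in growth (SD, n = 3 each), 14-fold higher. The 2 members that fell were Tnnt1, the slow skeletal troponin T, at 4.53, 4.75 and 4.75 at day 10 and 9.46, 9.55 and 9.82 in growth, and Tpm2, beta tropomyosin, by 1.21 ± 0.18 log2 (SE). Tnnt1 was thus bright in growth and low at day 10, the opposite of Tnnt2. Members above log2 4 on fewer than 2 of the 16 arrays were not tested, 4 of the thick and 5 of the thin filament lists. A gene dim on every growth array passed the filter only through DMSO arrays, which favours rises at day 10. Of all tested genes, 286 were dim in both groups. Counts of members, for these lists and for all lists below, thus describe the culture and do not test it.

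Z-disc, costamere and intermediate filament genes of muscle were mostly higher, with 21 of 28 tested higher, 2 lower and a median of 2.90 log2. Unc45b, the chaperone that folds muscle myosin, was at 11.50, 11.43 and 11.19 on the day 10 arrays, against 3.88, 4.85 and 4.18 on the growth arrays (135-fold higher). Csrp3, the muscle LIM protein, was at least 57.7-fold higher, the small heat shock protein Cryab at least 41.5-fold higher, the actin-binding Nexn at least 32-fold higher and the Z-disc scaffold Ldb3 at least 20-fold higher. On all of these the growth arrays lay below every day 10 array. The 2 members that fell were Actn3, the alpha-actinin of fast skeletal fibres, and Dmd, dystrophin, which was at 3.87, 3.79 and 4.09 on the day 10 arrays, against 6.06, 6.83 and 7.04 on the growth arrays (fell by 2.73 log2, adjusted p = 5.95e-06).

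Promoters of contractile genes are known for the CArG box, the site of serum response factor, made of a pair of C, a run of A or T and a pair of G. The 250 bases before the annotated start of 4 genes that carry it are shown 5′ to 3′ because these genes are among the contractile rises, with the CArG box in capitals. The sequences are from RefSeq (GRCm38.p6), Myl7 at chr11:5898783-5899032 on the minus strand, Actc1 at chr2:114052876-114053125 on the minus strand, Myl9, a regulatory light chain of smooth muscle myosin, at chr2:156775214-156775463 on the plus strand, and Myom1 at chr17:71019307-71019556 on the plus strand.
Myl7: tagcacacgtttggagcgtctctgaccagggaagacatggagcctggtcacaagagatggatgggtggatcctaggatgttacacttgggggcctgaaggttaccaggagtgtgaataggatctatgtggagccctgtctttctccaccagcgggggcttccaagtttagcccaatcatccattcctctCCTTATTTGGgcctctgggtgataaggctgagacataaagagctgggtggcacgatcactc
Actc1: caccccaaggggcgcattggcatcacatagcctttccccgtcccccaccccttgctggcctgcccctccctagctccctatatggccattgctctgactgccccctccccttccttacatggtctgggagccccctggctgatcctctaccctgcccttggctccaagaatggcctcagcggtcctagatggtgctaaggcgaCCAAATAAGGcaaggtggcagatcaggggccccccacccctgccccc
Myl9: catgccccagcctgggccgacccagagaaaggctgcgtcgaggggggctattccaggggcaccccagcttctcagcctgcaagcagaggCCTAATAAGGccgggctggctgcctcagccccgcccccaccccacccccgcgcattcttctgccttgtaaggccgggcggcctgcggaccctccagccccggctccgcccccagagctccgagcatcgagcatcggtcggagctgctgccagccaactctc
Myom1: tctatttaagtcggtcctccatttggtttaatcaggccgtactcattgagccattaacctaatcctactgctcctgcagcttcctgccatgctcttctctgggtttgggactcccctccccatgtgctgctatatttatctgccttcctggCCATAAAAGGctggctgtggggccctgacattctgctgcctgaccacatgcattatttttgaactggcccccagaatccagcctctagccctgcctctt
The box lies at -61 to -52 in Myl7, -47 to -38 in Actc1, -161 to -152 in Myl9 and -99 to -90 in Myom1, counted from the start of the gene. Of the 10802 tested genes, 8784 had a promoter in the table, and for the 1847 with several starts the first listed was used. The box, searched on both strands, was in 12 of 59 promoters (20.3%) of tested genes of the thick filament, thin filament, Z-disc and smooth muscle lists. It was in 105 of 8784 promoters of tested genes (1.2%) and in 1.4% of the 27025 promoters of the table. A second muscle motif, the site of the Mef2 factors, was in 8.47% of the 59 promoters and in 0.387% of those of tested genes. The GC box GGGCGG, on either strand, was in 40.7% of the 59 and in 62.2% of those of tested genes. The 59 promoters also differed in base composition, with a median ratio of observed to expected CpG of 0.35 beside 0.75 for tested genes and a median GC content of 58.4% beside 60.8%, and the part of composition in these shares was not tested. A match is a run of letters and not a measured binding site.

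**Figure D2:**
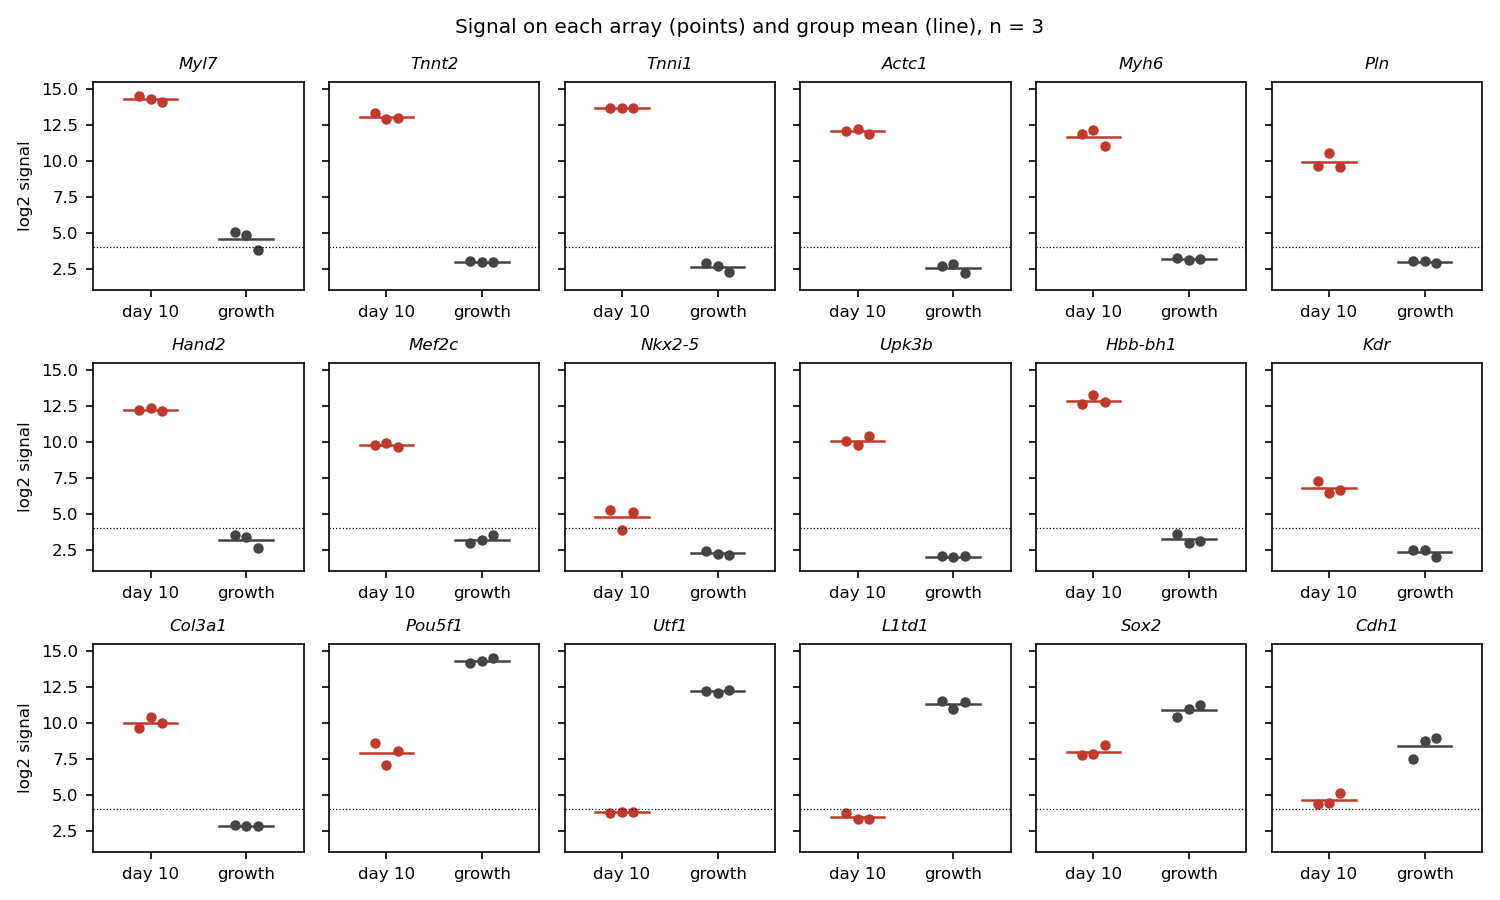
Log2 signal of 18 genes on each of the 3 day 10 arrays (red points, left) and the 3 growth arrays (dark points, right), with the group means as lines and the dim cutoff of log2 4 dotted. On the values as deposited the groups do not overlap in any panel. With values under 4 set to 4, arrays did not overlap upward for 29.1% of all tested genes and downward for 32.1%. Under that stricter rule Nkx2-5 does overlap, as a day 10 array and the growth arrays lie under 4. The muscle genes Myl7, Tnnt2, Tnni1, Actc1, Myh6 and Pln have all day 10 arrays at 9.54 or above and all growth arrays at 5.04 or below, and Nkx2-5 lies near the cutoff at day 10.

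Calcium handling genes were higher in part. Of 20 tested genes, 10 were higher and 3 lower, with a median of 1.10 log2. Phospholamban, Pln, the inhibitor of the calcium pump of the sarcoplasmic reticulum, was at 9.63, 10.57 and 9.54 on the day 10 arrays, against 3.03, 3.02 and 2.93 on the growth arrays. Ryr2, the calcium release channel of the heart, was at 7.60, 7.37 and 6.81 at day 10 and 3.12, 3.05 and 3.05 in growth (at least 9.57-fold higher). Proteins that tie the release channel to the surface membrane or to its stores were also above growth on every array: junctophilin Jph2 was at least 9.49-fold higher, triadin Trdn at least 5.01-fold higher and the histidine-rich calcium-binding protein Hrc at least 8.48-fold higher. The sodium-calcium exchanger Slc8a1 was at 3.95, 8.17 and 6.99 on the day 10 arrays, against 2.41, 2.71 and 2.46 on the growth arrays, so that day 10 replicate A was just below the dim cutoff while B and C were bright. The 3 members that fell were the skeletal muscle release channel Ryr1, the skeletal muscle junctophilin Jph1 and the T-type calcium channel Cacna1g, which was at 3.41, 2.91 and 2.91 at day 10 and 7.43, 8.14 and 7.84 in growth (at least 14-fold lower).

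The ion channels of the surface membrane and the connexins were divided, with 2 of 9 tested genes higher and 3 lower, and 10 more dim and not tested. The potassium channel Kcna5, which repolarizes atrial cells, was at 6.65, 6.37 and 6.63 at day 10 and 2.81, 2.75 and 2.79 in growth. Kcnj3 and Kcnj5 encode partner subunits of the acetylcholine-gated potassium channel of atrium and pacemaker. Kcnj3 fell by 3.32 log2, while Kcnj5 was called higher at 5.48, 3.80 and 2.91 on the day 10 arrays, against 2.90, 2.75 and 2.78 on the growth arrays, with only day 10 replicate A above the cutoff. The leak channel Kcnk3 and connexin 43, Gja1, fell by 1.89 and 1.01 log2. The natriuretic peptides Nppa and Nppb, hormones of the working heart muscle, were dim and were not tested. Among secreted factors and their receptors, 5 of 8 tested genes were higher and 0 lower: Ednrb, Adm, the natriuretic peptide receptors Npr2 and Npr3, and Corin, which cleaves natriuretic peptide precursors. The endothelin receptor Ednrb was at 7.63, 7.91 and 7.65 at day 10 and 2.82, 2.79 and 2.82 in growth. The vasodilator peptide adrenomedullin, Adm, was at 8.90, 6.24 and 5.12 at day 10 and 3.26, 2.88 and 3.06 in growth, so that its day 10 cultures lay far apart and replicate A was the highest.

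Transcription factors of the heart were widely higher. Of 30 tested members, 25 were higher and 2 lower, with a median of 3.27 log2, and 15 of the 25 were dim on every growth array. Hand2, a bHLH factor of the right ventricle and outflow tract, was at 12.21, 12.33 and 12.13 on the day 10 arrays, against 3.51, 3.42 and 2.62 on the growth arrays (at least 299-fold higher, adjusted p = 6.91e-07). Mef2c, which switches on contractile genes, was at 9.79, 9.91 and 9.64 on the day 10 arrays, against 2.96, 3.16 and 3.52 on the growth arrays (at least 54.9-fold higher). In both, the day 10 arrays lay within 0.3 log2 of each other and all growth arrays were dim. Tbx20 was at least 104-fold higher, Gata6 152-fold higher, Gata4 at least 37-fold higher and Hand1 at least 35.6-fold higher. Isl1, known from progenitors of the second heart field, was still bright at day 10, at 8.85, 8.95 and 8.74 at day 10 and 1.95, 2.50 and 1.95 in growth. Nkx2-5, a central factor of the embryonic heart, was at 5.25, 3.89 and 5.12 on the day 10 arrays, against 2.40, 2.21 and 2.13 on the growth arrays. Its difference of 2.51 ± 0.29 log2 (SE) rested on values close to the cutoff, and with values under 4 set to 4 it was 0.79 and no longer called. The 2 members that fell were Foxh1, the DNA-binding partner of Nodal-activated Smads, by 4.66 log2, and Tbx1, a factor of the pharyngeal and outflow progenitors, at 1.53, 1.48 and 1.66 at day 10 and 4.86, 4.08 and 5.35 in growth.

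Some related subunits of the BAF chromatin remodelling complex moved in opposite directions, in a list called near the background share. Smarcd3, the heart-enriched BAF60c subunit, was at 11.06, 11.26 and 11.31 on the day 10 arrays, against 2.58, 2.81 and 4.41 on the growth arrays. Its relative Smarcd1 was at 6.16, 6.61 and 6.80 on the day 10 arrays, against 8.55, 8.51 and 8.87 on the growth arrays. Dpf3, known from heart and skeletal muscle, was at 4.58, 6.27 and 6.05 at day 10 and 2.63, 2.54 and 2.63 in growth. Dpf1, known from neurons, was at 2.68, 4.32 and 4.17 at day 10 and 7.22, 6.16 and 7.11 in growth. The day 10 and growth arrays did not overlap for any of these 4 genes, as in a large share of all tested genes. Smarcc2 was at least 6.17-fold higher and the ATPase Smarca2 4.64-fold higher. In the whole list 6 of 21 tested genes were higher and 3 lower (42.9% called, near the 38% of all genes), with a median of -0.04 log2. The third that fell was Phf10, for which another probe set was called higher.

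Smooth muscle genes that were called all rose, with 11 of 16 tested higher, 0 lower and a median of 2.12 log2. Myl9 was at 11.28, 11.01 and 10.68 on the day 10 arrays, against 3.97, 4.60 and 4.24 on the growth arrays, and the actin-binding transgelin Tagln was 32.2-fold higher. Smooth muscle actin, Acta2, was at 12.25, 12.96 and 12.47 on the day 10 arrays, against 4.63, 5.32 and 4.01 on the growth arrays, but a second probe set of this gene gave a difference of 0.74 log2, which was not called. Mrtfb, a coactivator of serum response factor, was at 9.07, 9.11 and 9.10 at day 10 and 5.15, 6.37 and 5.88 in growth. Calponin, Cnn1, was at 6.20, 5.14 and 5.34 at day 10 and 3.04, 4.80 and 4.31 in growth, so the groups did not overlap but lay close together. Myh11, the myosin heavy chain that defines mature smooth muscle, was dim and not tested. A probe set of an actin, myosin or globin may also detect close relatives of its gene.

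Few genes of skeletal muscle could be tested. Of 24 listed members 18 were dim, among them the determination factors Myod1, Myf5, Myog and Pax7. The 3 that were higher among 6 tested were Acta1, skeletal alpha actin, at 6.76, 6.97 and 6.35 at day 10 and 3.99, 3.87 and 4.30 in growth, the light chain Myl1, at least 7.47-fold higher, and the muscle glycogen phosphorylase Pygm. Brain creatine kinase, Ckb, fell by 3.43 ± 0.43 log2 (SE).

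Red cell genes were high at day 10, while genes of vessels were divided. The embryonic beta-like globin Hbb-bh1 was at 12.62, 13.23 and 12.73 on the day 10 arrays, against 3.56, 2.99 and 3.12 on the growth arrays. The embryonic alpha-like globin Hba-x was at 11.15, 12.20 and 11.92 on the day 10 arrays, against 2.04, 1.95 and 2.01 on the growth arrays. Both are made by primitive red cells of the yolk sac, and both were dim on all growth arrays. Another embryonic globin, Hbb-y, was at 6.18, 8.74 and 7.99 at day 10 and 2.96, 2.90 and 2.90 in growth. The erythroid enzyme of haem synthesis, Alas2, was at 4.45, 5.47 and 5.34 at day 10 and 1.76, 1.75 and 1.74 in growth. In each of these 2 genes replicate A was the lowest day 10 array. Across 9 tested blood genes 5 were higher and 0 lower, with the red cell anion exchanger Slc4a1 as the fifth. All 5 were dim on every growth array and so passed the filter only through DMSO arrays. The mean of the tested list was 7.30 to 7.89 on the day 10 arrays and 4.01 to 4.11 on the growth arrays. A further 11 members were dim and not tested, among them the erythroid factor Gata1 and the leukocyte marker Ptprc.

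Of 16 tested endothelial genes, 7 were higher and 3 lower, with list means of 4.77 to 5.07 on the day 10 arrays and 4.18 to 4.37 on the growth arrays. The angiopoietin receptor Tek was at 7.75, 8.32 and 7.94 at day 10 and 2.96, 2.96 and 2.97 in growth. Kdr, the main VEGF receptor, was at 7.27, 6.47 and 6.64 at day 10 and 2.48, 2.47 and 1.99 in growth. Both were dim on all growth arrays. The other rises were Npr3, Ramp2, Mmrn2, Icam2 and the junction gene Esam, each by less than 2 log2 and with day 10 means of Esam and Icam2 close to the cutoff. Among junction genes that define endothelial cells Cdh5 and Pecam1 were not called. Cdh5 was at 4.88, 2.48 and 2.87 at day 10 and 2.48, 2.45 and 2.43 in growth. Pecam1 was at 4.42, 2.65 and 2.95 at day 10 and 3.23, 2.62 and 2.62 in growth. Day 10 replicate A was the highest array of both and the only one above the cutoff. The VEGF receptors Flt1 and Flt4 fell by 3.07 and 2.14 log2, and Etv2, the factor that starts endothelial and blood fates, was at 1.55, 1.80 and 2.22 at day 10 and 5.21, 4.68 and 4.63 in growth. Markers of macrophages were not called, with Adgre1 at 4.19 ± 0.38 at day 10 and 3.74 ± 0.09 in growth and Csf1r at 4.90 ± 0.01 at day 10 and 4.88 ± 0.02 in growth (SD, n = 3 each).

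Mesothelium and epicardium, the outer cell layer of heart and body cavity, gave 9 of 15 tested genes higher and 0 lower, with a median of 2.31 log2. Of these 9, 6 were dim on every growth array. The mesothelial membrane protein Upk3b was at 10.07, 9.76 and 10.43 on the day 10 arrays, against 2.04, 2.01 and 2.04 on the growth arrays (at least 67.8-fold higher). Basonuclin 1, Bnc1, was at least 105-fold higher, and the Wilms tumour factor Wt1, at 8.07, 7.04 and 7.01 at day 10 and 3.08, 3.15 and 3.16 in growth, was at least 10.4-fold higher. Tbx18, a factor of the epicardium and sinus venosus, was at 7.06, 5.19 and 4.49 at day 10 and 2.58, 2.54 and 2.54 in growth, again with replicate A the highest. Tcf21, a factor of epicardial fibroblast precursors, was dim in both groups, at 2.41, 2.74 and 2.51 at day 10 and 2.40, 2.34 and 2.39 in growth.

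Of 22 tested mesenchymal genes 16 rose and 0 fell, with a median of 2.21 log2. N-cadherin, Cdh2, which joins heart muscle cells, was at 11.27, 11.77 and 11.50 on the day 10 arrays, against 4.97, 5.05 and 4.36 on the growth arrays. E-cadherin, Cdh1, was at 4.34, 4.41 and 5.09 on the day 10 arrays, against 7.51, 8.76 and 8.94 on the growth arrays. The 2 cadherins thus ran in opposite directions, and neither overlapped between the groups. The repressor Snai2 was at least 59.2-fold higher, the matrix protein periostin, Postn, at least 66.5-fold higher, the cadherin Cdh11 at least 55.4-fold higher and the PDGF receptor Pdgfra at least 14.2-fold higher.

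The extracellular matrix was widely higher. Of 31 tested collagens and collagen enzymes 19 were higher and 1, the cartilage collagen Col2a1, was lower. Col3a1 was at 9.66, 10.37 and 9.95 on the day 10 arrays, against 2.91, 2.81 and 2.84 on the growth arrays. Col1a2 was at 8.26, 9.47 and 8.74 on the day 10 arrays, against 2.37, 2.35 and 2.35 on the growth arrays. All growth arrays of both were dim. The partner chain of Col1a2 in type I collagen, Col1a1, was dim in both groups on the probe set used, at 3.40, 3.99 and 3.68 at day 10 and 3.16, 3.16 and 3.01 in growth, and was not called. The prolyl hydroxylase subunit P4ha2 was 22.9-fold higher and the fibrillar Col5a1 33.6-fold higher. Among fibronectin, laminins, integrins and proteoglycans, 27 of 48 were higher and 4 lower. Tenascin C, Tnc, was at least 48-fold higher, fibrillin 2, Fbn2, 94.6-fold higher, versican, Vcan, 70.6-fold higher, the protease Adamts1 at least 95.5-fold higher and fibronectin, Fn1, 21.6-fold higher. The 4 that fell were the epithelial basement membrane genes Lama5 and Itga6, Itgb5 and Ccn2, by 2.07, 1.21, 1.15 and 1.99 log2.

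Endoderm markers were uneven between the day 10 cultures. Of 14 tested, 8 were higher and 2 lower, the falls being Cldn6 and Foxa3, and Gata4 and Gata6 are shared with the heart. The plasma carrier transthyretin, Ttr, was at 7.60, 8.50 and 10.07 on the day 10 arrays, against 2.90, 2.86 and 2.88 on the growth arrays. Retinol binding protein, Rbp4, was at 6.89, 6.14 and 8.78 at day 10 and 2.77, 4.01 and 4.12 in growth. Apolipoprotein Apoa1 was at 5.42, 5.67 and 7.90 at day 10 and 3.20, 3.02 and 3.02 in growth. Replicate C was the highest day 10 array of all 3. Alpha-fetoprotein, Afp, was at 4.35, 2.75 and 2.99 at day 10 and 2.81, 2.74 and 2.77 in growth and was not called, and the endoderm factors Foxa2 and Sox17 were dim and not tested. Of 9 tested trophoblast genes the 4 that rose were Hand1, Krt8, Krt18 and Peg10, which other tissues also express, and the placental markers Elf5 and Tpbpa were dim and not tested.

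**Figure D3:**
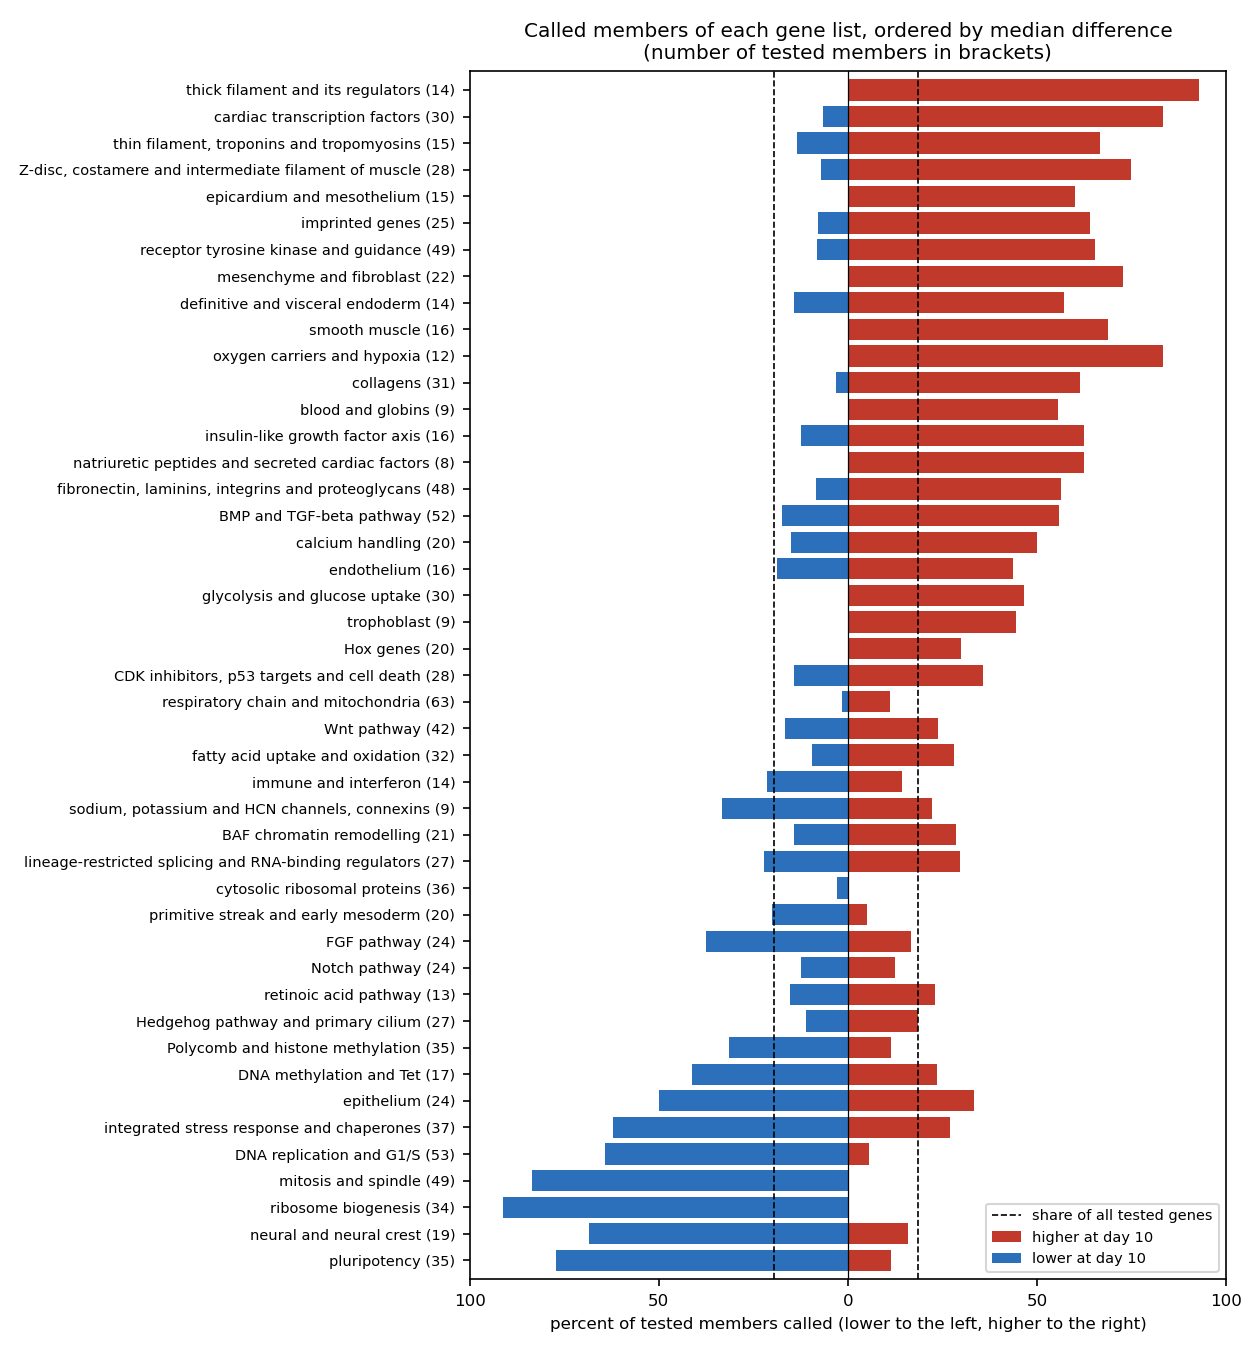
Percent of the tested members of each gene list that were called higher at day 10 (red, to the right) or lower (blue, to the left), for lists with at least 8 tested members in the order of their median difference. Dashed lines mark the shares over all tested genes, 18.5% higher and 19.5% lower. Contractile, cardiac factor and mesothelial lists lie at the top, and ribosome biogenesis, neural and pluripotency lists at the bottom.

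The genes of the embryonal carcinoma state were low at day 10. Of 35 tested pluripotency genes 27 were lower and 4 higher, with a median of -3.97 log2. The chromatin-associated factor Utf1 was at 3.75, 3.77 and 3.81 on the day 10 arrays, against 12.18, 12.07 and 12.29 on the growth arrays. The RNA-binding L1td1 was at 3.71, 3.32 and 3.34 on the day 10 arrays, against 11.52, 10.95 and 11.44 on the growth arrays. Nanog was at 3.39, 3.40 and 2.77 on the day 10 arrays, against 8.30, 7.44 and 7.94 on the growth arrays. These 3 genes were dim on all day 10 arrays. Pou5f1 and Sox2, in contrast, were lower but above the cutoff. Pou5f1 was at 8.59, 7.08 and 8.05 at day 10 and 14.12, 14.27 and 14.50 in growth (fell by 6.39 ± 0.53 log2, SE). Sox2 was at 7.74, 7.81 and 8.44 at day 10 and 10.42, 10.97 and 11.23 in growth (fell by 2.87 ± 0.32 log2, SE). The signal left is that of whole cultures, and the share of cells that carry it was not measured. The let-7 inhibitor Lin28a fell by 5.64 log2 and the RNA-binding ubiquitin ligase Trim71 by 3.60. The 4 members that were higher were Klf4, Tbx3, and Il6st and Stat3 of the LIF signalling pathway, genes with known roles outside stem cells as well, and Klf4 was at 5.65, 6.26 and 6.69 at day 10 and 3.58, 3.54 and 3.57 in growth. Zfp42, a marker of naive stem cells, was dim and not tested.

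Several genes of Nodal signalling, which holds the undifferentiated state and patterns the early embryo, were lower at day 10. The ligand Nodal was at 5.31, 4.14 and 4.65 on the day 10 arrays, against 10.00, 9.96 and 9.91 on the growth arrays. Its coreceptor Tdgf1 was at 5.42, 5.59 and 4.97 on the day 10 arrays, against 10.85, 10.40 and 11.23 on the growth arrays. Its antagonist Lefty1 was at 4.31, 3.82 and 5.35 on the day 10 arrays, against 11.14, 11.09 and 12.00 on the growth arrays. For each, the lowest growth array was at least 4 log2 above the highest day 10 array. The related ligand Gdf3 was at least 35.7-fold lower. A second antagonist, Lefty2, named after its value was seen, differed by -0.63 log2 and was not called (adjusted p = 0.511). Of 20 tested genes of the primitive streak and early mesoderm 1, Cited2, was higher, at 10.82 ± 0.27 at day 10 and 4.48 ± 0.87 in growth (SD, n = 3 each), and 4 were lower, Eomes, Nodal, Cited1 and Lefty1, beside the background of 19.5%. Eomes, a T-box factor of the streak, was at 4.52, 4.50 and 4.53 at day 10 and 7.95, 7.82 and 7.64 in growth.

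Genes of BMP signalling were mostly higher. Of 52 tested genes of the BMP and TGF-beta pathway 29 were higher and 9 lower, with a median of 1.24 log2. The ligand Bmp4 was at 11.42, 11.10 and 10.61 on the day 10 arrays, against 4.48, 5.28 and 4.85 on the growth arrays, and Bmp5, dim in growth, was at least 31.5-fold higher. A pair of targets that feed back on the pathway, the decoy receptor Bambi and the inhibitory Smad6, were 88.3-fold higher and 55.2-fold higher. The HLH inhibitors Id1 and Id2, textbook targets of BMP, were also higher, Id1 at 10.94 ± 0.49 at day 10 and 5.24 ± 1.42 in growth and Id2 at 12.04 ± 0.03 at day 10 and 5.26 ± 0.35 in growth (SD, n = 3 each). The falls included Nodal, Tdgf1, Lefty1 and Gdf3, Tgfb3 (at least 3.76-fold lower) and the Smad corepressor Tgif1 (fell by 2.57 log2).

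In the FGF pathway 4 of 24 tested genes were higher and 9 lower. The ligand Fgf4 was at 1.84, 1.83 and 1.85 at day 10 and 5.93, 6.74 and 6.84 in growth. The ligand Fgf15 was at 2.09, 2.07 and 2.10 at day 10 and 6.84, 6.68 and 7.20 in growth. Both were dim on every day 10 array. The ETS factor Etv5, a target of FGF signalling, was at 5.28, 4.16 and 4.97 on the day 10 arrays, against 10.94, 11.32 and 11.44 on the growth arrays, and the related Etv4 and the feedback inhibitor Spry4 were at least 4.55-fold lower and at least 4.73-fold lower. The receptors Fgfr3 and Fgfr2 were at least 14.3-fold higher and 5.23-fold higher, and Flrt3, a membrane protein that binds FGF receptors, was at least 77.9-fold higher. The fourth that rose was the receptor-like Fgfrl1.

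Wnt genes were mixed, with 10 of 42 higher, 7 lower and a median of 0.13 log2 (40.5% called, near the 38% of all genes). The secreted inhibitor Sfrp1 was at 10.55, 10.74 and 10.50 at day 10 and 5.67, 6.08 and 6.15 in growth. Its relative Sfrp2 was at 3.69, 4.34 and 4.55 at day 10 and 6.27, 7.33 and 6.92 in growth. The receptors Ror1 and Fzd1 were at least 12.1-fold higher and 5.74-fold higher, and Fzd5 and Fzd10 10.3-fold lower and 5.02-fold lower. Axin2, a target of the beta-catenin branch, fell by 1.87 ± 0.47 log2 (SE), and so did cyclin D1, Ccnd1, by 1.58 ± 0.51.

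Notch, Hedgehog and retinoic acid lists were called near or below the background share. In the Notch list 3 of 24 were higher, the targets Hey1 and Hey2 and the ligand Jag1, and 3 lower. Of the 3 that fell, the ubiquitin ligase Dtx1 was at 2.12, 1.97 and 2.17 on the day 10 arrays, against 7.69, 7.48 and 7.78 on the growth arrays, dim on every day 10 array, and Dtx4 and Hes5 fell by 1.42 and 1.02 log2. In the list of Hedgehog and primary cilium genes 5 of 27 were higher, led by the coreceptors Cdon (9.4-fold higher) and Gas1 (5.89-fold higher) and followed by Gli2, Kif3a and Ift20, and 3 were lower, Bbs4, Bbs5 and Ift80. Receptors of retinoic acid moved in opposite directions. Rarb was at 5.98, 5.82 and 5.77 at day 10 and 2.49, 2.45 and 2.45 in growth. Rarg was at 4.63, 3.79 and 4.05 at day 10 and 8.18, 7.65 and 8.30 in growth.

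Guidance molecules and receptor tyrosine kinases were mostly higher, 32 of 49 higher and 4 lower, with a median of 2.23 log2. Nrp1, a coreceptor for VEGF and semaphorins, was at 11.80, 12.14 and 11.46 on the day 10 arrays, against 3.18, 3.25 and 2.53 on the growth arrays. The chemokine CXCL12 has 2 receptors, the signalling Cxcr4 and the scavenging Ackr3. Ackr3 was at 10.85, 10.37 and 10.13 at day 10 and 2.69, 2.13 and 2.15 in growth. Cxcr4 was at 3.89, 3.53 and 3.79 at day 10 and 6.42, 6.64 and 6.75 in growth, dim at day 10. The ligand Kitl was at least 61.2-fold higher and its receptor Kit 8.17-fold higher, and the ligand Pdgfc, 103-fold higher, rose with its receptor Pdgfra. The neuregulin receptor Erbb3 was at least 9.25-fold lower, and Epha1 and Sema6a were the other falls beside Cxcr4.

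Genes of the insulin-like growth factor axis and imprinted genes, which are expressed from 1 parental allele, were mostly higher. In the insulin-like growth factor list 10 of 16 tested rose, with a median of 1.76 log2, and 2 fell, the binding protein Igfbp2 by 1.68 log2 and the RNA-binding Igf2bp1 by 1.54. Igf2 was at 14.40, 14.43 and 14.44 on the day 10 arrays, against 4.98, 5.70 and 5.05 on the growth arrays. Dlk1, a Notch-related membrane protein, was at 13.07, 12.83 and 13.28 on the day 10 arrays, against 2.90, 2.63 and 2.68 on the growth arrays. These 2 and Igfbp5, an IGF binding protein (at least 336-fold higher), were near the top of the signal range at day 10. The clearance receptor of Igf2, Igf2r, was 38.8-fold higher, and Airn, an RNA antisense to Igf2r, 14.4-fold higher. Probe sets do not tell the parental alleles apart. Over the imprinted list 16 of 25 were higher and 2 lower, with a median of 2.27 log2. The pair that fell, Snrpn and Magel2, and the higher Ndn lie in the same imprinted region. Snrpn was at 2.80, 3.06 and 2.74 at day 10 and 5.63, 5.53 and 5.55 in growth. Magel2 was at 5.20, 5.25 and 5.21 at day 10 and 8.20, 8.21 and 8.03 in growth. Ndn was at 13.02, 13.08 and 13.14 at day 10 and 9.11, 9.73 and 9.48 in growth. Neighbours in 1 region thus moved in opposite directions, each without overlap of the groups.

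Position genes of the Hox clusters were higher in 6 of 20 tested and lower in 0. The share called was 30%, below the 38% of all genes, of which 18.5% were higher and 19.5% lower. The genes that rose were Hoxb2, Hoxb3, Hoxb4 and Hoxb5 of the B cluster, Hoxa9 and Hoxd8. Of these 6, 5 were dim on every growth array, and 13 more members were dim and not tested. Hoxb2 was at 9.42, 9.22 and 8.98 at day 10 and 1.55, 1.59 and 1.82 in growth, Hoxb4 was at least 12.9-fold higher and Hoxb3 8.72-fold higher.

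Genes of the nervous system were mostly lower, and those of epithelia went both ways. In the neural list 13 of 19 tested fell and 3 rose, with a median of -1.89 log2, and the determinants Sox1, Pax6, Neurog1 and Sox10 were dim and not tested. The G protein subunit Gng3 was at 6.51, 6.34 and 5.99 on the day 10 arrays, against 11.71, 11.98 and 11.79 on the growth arrays. Neuropeptide Y, Npy, fell by 3.19 log2, and neuron-specific tubulin, Tubb3, by 3.03. The 3 that rose were Map2, Ngfr and the adhesion molecule Ncam1, which was at 8.23, 9.24 and 8.87 at day 10 and 5.38, 6.45 and 6.64 in growth. In the epithelial list 12 of 24 fell and 8 rose. Epcam, an adhesion molecule of epithelia and stem cells, was at 6.28, 5.05 and 7.18 on the day 10 arrays, against 12.22, 12.21 and 11.98 on the growth arrays. The epithelial splicing factor Esrp1 was at 2.32, 2.27 and 2.32 at day 10 and 5.44, 8.31 and 7.39 in growth. The genes that rose included desmosome proteins that the heart's intercalated discs also contain. Desmoplakin, Dsp, was at 11.68, 11.64 and 11.40 at day 10 and 4.05, 6.01 and 6.52 in growth. Desmocollin 2, Dsc2, was 20-fold higher and plakophilin 2, Pkp2, 5.7-fold higher. The keratins Krt8 and Krt18 were 16.3-fold higher and 5.39-fold higher.

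Genes that write and read DNA methylation and repressive histone marks included paralogues that moved in opposite directions. The de novo DNA methyltransferase Dnmt3b was at 6.18, 6.41 and 6.45 on the day 10 arrays, against 12.13, 12.31 and 12.58 on the growth arrays. Dnmt3a fell by 2.12 log2, with 2 of its 4 other probe sets also called lower and 1 called higher, and Dnmt3l was at least 2.64-fold lower. Of the Tet enzymes, which oxidize methylated cytosine, Tet1 fell by 1.99 log2, and Tet2 was at 8.88, 8.50 and 8.29 at day 10 and 6.88, 6.21 and 6.48 in growth. In the Polycomb and histone methylation list 11 of 35 fell and 4 rose (42.9% called, near the 38% of all genes). The chromodomain subunit Cbx7 was at 3.05, 2.45 and 2.96 on the day 10 arrays, against 8.45, 8.43 and 8.51 on the growth arrays, dim on every day 10 array, while Cbx8 was 2.27-fold higher. Phc1 was at 8.88, 8.91 and 9.11 at day 10 and 12.22, 12.37 and 12.44 in growth. Phc3 was at 7.59, 7.18 and 7.19 at day 10 and 3.30, 4.63 and 3.90 in growth. Of the ring finger subunits Bmi1 and Pcgf5 were 8.87-fold higher and 4.24-fold higher, and Pcgf6 was 3.1-fold lower. The H3K9 methyltransferase Suv39h2 was 10-fold lower.

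Of 27 tested regulators of splicing and other RNA-binding proteins 8 rose and 6 fell. Rbm24, which directs splicing in heart and skeletal muscle, was at 9.33, 9.12 and 8.74 on the day 10 arrays, against 3.32, 3.77 and 4.12 on the growth arrays. Rbm20, which regulates the splicing of titin, was at 8.10, 7.94 and 7.89 at day 10 and 4.14, 4.42 and 3.67 in growth. Both were higher than growth on every array. The muscleblind gene Mbnl1 was at 8.18, 8.88 and 8.67 at day 10 and 3.84, 5.39 and 5.44 in growth, and Celf2, which acts on many of the same exons, was 8.07-fold higher.

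Cell division genes were lower as a group. Of 49 tested genes of mitosis and spindle 41 fell and 0 rose, with a median of -1.56 log2. The kinase Plk1 was at 8.29, 8.46 and 8.48 at day 10 and 11.28, 10.97 and 10.86 in growth. Aurka was at 8.09, 7.82 and 7.92 at day 10 and 11.05, 10.46 and 10.51 in growth, so both remained bright at day 10. In the list of DNA replication and the G1/S step 34 of 53 fell. The origin factor Orc1 was at 3.48, 3.87 and 3.46 at day 10 and 6.70, 6.82 and 7.23 in growth and was dim on every day 10 array. The 3 that rose were the cyclins Ccnd2, Ccnd3 and Ccne2, while cyclin D1 and the kinase Cdk6 fell. Ccnd3 was at 10.86, 10.91 and 11.33 at day 10 and 9.47, 8.98 and 9.51 in growth. Ccnd2 was at 8.82, 9.85 and 10.16 at day 10 and 8.82, 7.84 and 7.38 in growth, so replicate A was at the same level in both groups. Among brakes of the cycle and p53 targets 10 of 28 rose and 4 fell. The retinoblastoma relative Rbl2 was at least 4.98-fold higher, and the survival factor Bcl2 fell by 3.53 log2. Targets of p53 went both ways. Plk2 rose by 5.07 log2, Sesn1 by 2.15, Gadd45a by 2.12 and Btg1 by 1.92, while Aen, Zmat3 and Sesn2 fell by 2.82, 2.54 and 1.30.

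Ribosome production and the ribosome itself gave different results. Of 34 tested genes of ribosome biogenesis 31 fell and 0 rose, with a median of -1.70 log2. The pseudouridine synthase dyskerin, Dkc1, was at 8.15, 8.45 and 8.07 on the day 10 arrays, against 11.23, 11.23 and 10.98 on the growth arrays. The large subunit of RNA polymerase I, Polr1a, was at 5.46, 6.29 and 6.50 on the day 10 arrays, against 8.64, 8.86 and 8.88 on the growth arrays. Of 36 tested ribosomal protein genes 1 fell, Rpl12, and 0 rose, with a median of -0.08 log2. Of the 65 listed, 28 had no single-gene probe set and 1 was dim, so these were not tested. The mean of the ribosomal protein list was 13.43 to 13.53 on the day 10 arrays and 13.47 to 13.64 on the growth arrays, and that of ribosome biogenesis 8.81 to 9.06 on the day 10 arrays and 10.57 to 10.66 on the growth arrays. Ribosomal protein probe sets lay close to the top of the scale, where array signal can saturate. The proto-oncogene Myc, which drives ribosome production, was at 4.26, 4.64 and 5.41 at day 10 and 7.75, 6.90 and 7.38 in growth.

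The integrated stress response, the programme of Atf4, raises genes of amino acid synthesis and transport when its signal is on. In the list of stress response genes and chaperones 23 of 37 fell and 10 rose. The serine synthesis enzyme Psat1 was at 8.92, 9.45 and 10.13 on the day 10 arrays, against 12.84, 12.79 and 13.00 on the growth arrays. The amino acid transporter Slc7a3 was at 7.25, 8.47 and 9.62 on the day 10 arrays, against 11.52, 11.31 and 11.26 on the growth arrays. The kinase-like Trib3 was at 7.66, 9.07 and 9.76 at day 10 and 11.22, 11.24 and 11.51 in growth. In all 3 replicate A was the lowest day 10 array and C the highest, and the mean of the whole list was 8.59 to 9.50 on the day 10 arrays and 9.53 to 9.77 on the growth arrays with the same order of the day 10 arrays. The rises included the lipoprotein receptor Vldlr (4.79-fold higher) and chaperones. The cardiovascular heat shock protein Hspb7 was at least 31.9-fold higher, and the chaperone of the endoplasmic reticulum Hspa5 was 4.67-fold higher.

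Genes of energy metabolism differed by pathway in how many were called. Of 30 tested genes of glycolysis and glucose uptake 14 rose and 0 fell (46.7% called), with a median of 0.93 log2. The muscle form of phosphoglycerate mutase, Pgam2, was at 12.07, 11.31 and 11.06 on the day 10 arrays, against 3.12, 4.46 and 3.53 on the growth arrays. The glycolytic activator Pfkfb3 was 7.03-fold higher. Of 63 tested genes of the respiratory chain and mitochondria list 7 rose and 1 fell, with a median of 0.30 log2. The share called was 12.7%, below the 38% of all genes. The lowest difference of the list was -3.43 log2, equal to the fall given above for brain creatine kinase, Ckb. The rises included forms known from heart and skeletal muscle. The ADP/ATP carrier Slc25a4 was at 14.88, 14.52 and 14.58 on the day 10 arrays, against 9.93, 10.22 and 9.64 on the growth arrays. The cytochrome oxidase subunit Cox6a2 was at 7.26, 7.20 and 7.54 at day 10 and 3.47, 4.70 and 4.90 in growth. Fatty acid genes were called at a share near that of all genes (37.5% beside 38%). Of 32 tested, 9 were higher and 3 lower, which were Acot2, Cpt2 and Fabp5. The fatty acid transporter Cd36 was at 7.28, 7.44 and 7.28 at day 10 and 2.96, 2.86 and 2.89 in growth, the nuclear receptor Esrrg was at least 11.3-fold higher and its coactivator Ppargc1a at least 5.47-fold higher. Genes that respond to low oxygen were higher in 10 of 12 tested and lower in 0. Ndrg1 was at 10.50, 9.95 and 9.66 at day 10 and 3.99, 5.37 and 6.87 in growth. Ankrd37 was at 9.08, 7.80 and 6.96 at day 10 and 5.39, 4.61 and 5.67 in growth. Day 10 replicate A was the highest array of both, and the list mean was 9.25 on it, 8.47 on B and 8.41 on C, against 6.33 to 6.95 on the growth arrays.

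**Figure D4:**
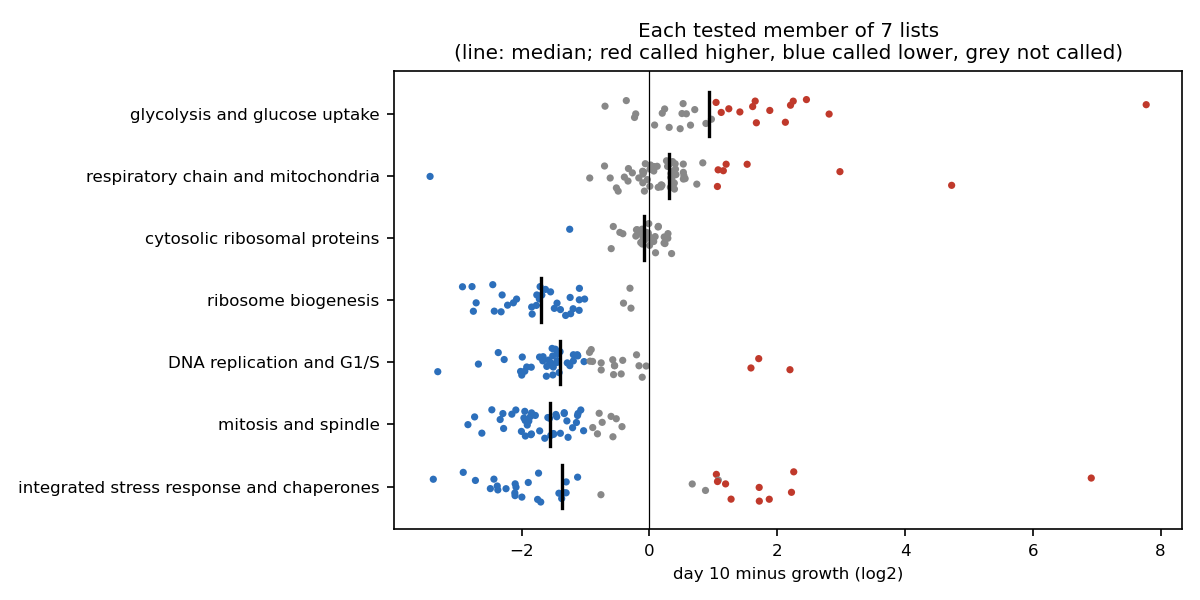
Day 10 minus growth difference in log2 (horizontal axis) of every tested member of 7 lists, 1 point a gene, with the list median as a black line. Red points were called higher at day 10, blue points lower and grey points were not called. Members of the ribosome biogenesis, replication and mitosis lists lie mostly left of 0, ribosomal proteins close to 0, and Pgam2, Hspb7 and Slc25a4 far to the right of their lists.

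Several genes named above have other probe sets that passed the filter and of which none gave the same call: Acot2, Acta2, Axin2, Cdh11, Cpt2, Epcam, Gli2, Ift80, Jag1, Jph1, Jph2, Hoxd8, Klf4, Orc1, Pdgfra, Pfkfb3, Phc3, Phf10, Rbl2, Ror1, Smarca2, Tbx18 and Trdn. Over all called genes, 1880 had other probe sets, at least 1 of which gave the same call for 1341 genes and all of which did for 1068. An opposite call occurred for 6 genes, of which Dnmt3a and Phf10 are described here. The size of a difference could also vary with the alternative setting while the call was kept. For Igfbp5 it ranged from 3.98 to 10.06 log2, for Ldb3 from 2.36 to 5.74 and for Ttn from 3.32 to 5.94. Some calls described here rested on values near the cutoff or on 1 array. With values under 4 set to 4, Cbx8, Col2a1, Corin, Epha1, Esam, Etv2, Hoxa9, Hoxb5, Icam2, Kcnj5, Map2, Ngfr, Nkx2-5, Npr2, Pygm, Ryr1, Sema6a and Tbx1 were no longer called. Leaving out 1 of the 6 arrays ended the call of the following genes, each given with the smallest difference that remained. Without day 10 replicate A, Kcnj5 differed by 0.54 log2, Itga6 by -0.68, Ccnd1 by -0.85 and Ccn2 by -1.69. Without day 10 replicate B, Gja1 differed by -0.90 and Cbx8 by 0.98, and without day 10 replicate C, Hoxa9 differed by 1.61, Fabp5 by -0.99, Ngfr by 0.97, Npr3 by 0.64 and Gadd45a by 1.86. Without growth replicate A, Hes5 differed by -0.58, without growth replicate B, Rpl12 by -0.81, Ramp2 by 1.23, Ift80 by -0.91 and Acot2 by -0.92, and without growth replicate C, Jag1 by 1.88 and Epha1 by -1.46.

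The place of day 10 in the time course was examined against days 8 and 12. Many contractile genes were higher at day 10 than at day 8, where the cultures differed widely from each other. In all 499 genes were higher at day 10 than at day 8 (4.62%) and 345 lower (3.19%). Replicate A of day 8 correlated with the day 10 arrays at 0.9 to 0.917, below the 0.941 to 0.967 of replicates B and C, and without it 626 genes were called in place of 844. Myl7 was at 14.30 ± 0.22 at day 10 and 8.26 ± 4.35 at day 8 (difference 6.04 ± 1.50 log2, SE, adjusted p = 0.0162), where the error of each mean is an SD of 3 arrays. Actc1 was at 12.04 ± 0.17 at day 10 and 4.65 ± 1.66 at day 8. Myh6 was at 11.65 ± 0.59 at day 10 and 4.85 ± 1.99 at day 8. The spread at day 8 was wide for all 3. The SE and p of limma rest on 1 spread per gene pooled over all groups, so they do not measure the wide spread at day 8. Troponin Tnni3 was higher than at day 8 by 6.98 log2, Myl9 by 5.60 and Col3a1 by 5.90. Of the thick and thin filament lists 11 and 10 genes were higher than at day 8, and of 35 pluripotency genes 10 were lower. These list counts include day 8 replicate A.

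The falls between day 8 and day 10 included Lin28a, which was at 6.69 ± 0.80 at day 10 and 10.06 ± 1.10 at day 8 (fell by 3.37 log2, adjusted p = 0.000423), and Myc, which fell by 3.03. The tryptophan-degrading enzyme Tdo2 was dim at day 10, as in growth, and fell by 5.77 log2 relative to day 8, a transient that a comparison of day 10 with growth alone does not show. The galectin Lgals3 and the prostacyclin synthase Ptgis fell by 2.86 and 2.91. Ptgis at day 10 was also below growth, by 3.36 log2, whereas Lgals3 was still above it, by 3.54. In the stress response list 16 of 37 genes were lower at day 10 than at day 8.

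Between day 10 and day 12 far fewer genes were called, 311 higher at day 12 (2.88%) and 20 lower (0.185%), and day 12 had 2 arrays. The 331 calls became 155 without day 12 replicate C. Actc1 and Myh6 differed by 1.82 and 2.08 log2 and were not called. The 4 thin filament genes called higher at day 12 were Acta1, Tnnc1, Tnni3 and Tnnt1, the slow skeletal troponin T that was lower at day 10 than in growth and was at 6.83 ± 0.18 at day 12 and 4.68 ± 0.13 at day 10. Shox2, a factor of the sinus node region, was at 9.09 ± 0.16 at day 12 and 5.87 ± 1.31 at day 10 (SD, n = 2 and n = 3) and dim in growth. Afp was at 9.12 ± 0.19 at day 12 and 3.36 ± 0.86 at day 10, and Tcf21 at 6.35 ± 0.10 at day 12 and 2.55 ± 0.17 at day 10, so these markers of endoderm and of epicardial fibroblast precursors, dim on average at day 10, were called higher at day 12. The membrane protein Tm4sf5, the peptidase Enpep and transglutaminase Tgm2 were higher by 4.17, 3.09 and 3.48 log2. The falls from day 10 included the globin Hbb-y, at 3.83 ± 0.77 at day 12 and 7.64 ± 1.31 at day 10 (fell by 3.81 log2, adjusted p = 0.000526), and Igsf11, a member of the immunoglobulin family, which fell by 3.81. Hbb-bh1 and Hba-x had large differences of -5.25 and -4.85 log2 that were not called (adjusted p = 0.175 and 0.191). Dpf3 and the imprinted Phlda2 fell by 1.95 and 2.28. These comparisons share the day 10 arrays with the comparison against growth.

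**Figure D5:**
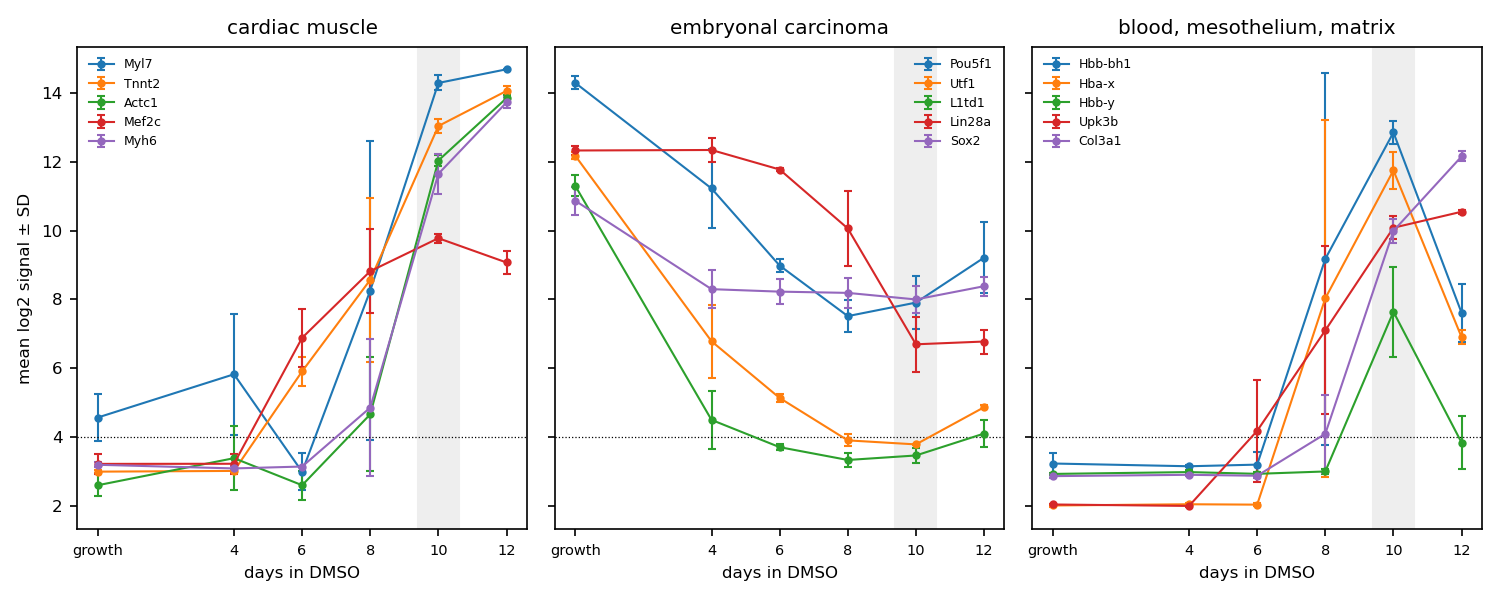
Mean log2 signal ± SD by day in DMSO, with growth at the left, for 5 cardiac muscle genes, 5 embryonal carcinoma genes and 5 genes of blood, mesothelium and matrix (n = 3 for growth and days 4, 8 and 10, n = 2 for days 6 and 12). Day 10 is shaded and the dim cutoff of log2 4 is dotted. Actc1 and Myh6 lie near 12 at day 10 and near 5 with wide spread at day 8, and the 3 globins have their highest mean at day 10.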

How the data were processed

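RNA of 16 P19CL6 cultures was hybridized to 1-colour Affymetrix arrays, and the authors deposited a table of log2 values made with GCRMA (background correction, normalization between arrays and summary of probes), per the submitters' processing notes. The log2 scale was read from the range of the deposited values, and the version of GCRMA is not given in the sources used here. Values were used as deposited. Of 45101 probe sets, 34945 named 1 gene in the platform annotation, 932 named several, 9160 none and 64 were controls. For each of 18193 symbols the probe set with the highest mean among those above log2 4 on at least 2 arrays was used, and 7391 symbols had none.

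Groups were taken from the sample titles. Differences were tested with lmFit and eBayes in limma 3.58.1 (R 4.3.3) over all 16 arrays, with 1 mean per group and p-values adjusted over 10802 genes by the Benjamini-Hochberg method. The script was tested on simulated data. The number of arrays limits the precision. Deviations of arrays with the same letter in the day 10 and growth groups correlated at -0.057 (A), 0.098 (B) and 0.042 (C), so letters were not used as pairs. Genes named were the largest differences that did not overlap between groups, for day 10 against growth, against day 8 and against day 12. Up to 6 called members each way of 47 gene lists and defining genes of those lists were also named. The rest were markers of cell types, with the 4 markers Myl7, Actc1, Tnnt2 and Mef2c among them. The genes and lists were chosen with earlier results of these data known. Alternatives were other filters, normalizations, thresholds, probe set choices and models, and each array left out. Promoters were taken from a RefSeq table (GRCm38.p6) and searched in Python 3.11.15 with pandas 2.3.3.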

Additional observations from a re-analysis of the deposited data

Results flagged for a closer look

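Probe sets without a single gene name, which were not used for the gene groups, also differed between day 10 and growth. Of 1685 that passed the filter and have no gene name here, 223 were higher at day 10 and 194 were lower at the same thresholds in limma (24.7% called). Of 535 that name several genes, 75 were higher and 68 were lower (26.7%), beside 35.2% of the 18970 probe sets that name 1 gene.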

How the results depend on the processing

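The 4107 calls of day 10 against growth became 6496 with no minimum difference, 4112 with the replicate block and 3619 to 4131 under the other alternatives, and 4022 to 4135 when 1 of the 6 arrays was left out. The 844 calls of day 10 against day 8 became 368 when only the groups compared were fitted, 538 at an adjusted p under 0.01, 1710 with no minimum difference, 864 with the replicate block and 626 to 1079 with 1 array left out. The 331 calls of day 12 against day 10 became 142 with a filter at log2 6, 121 when only the groups compared were fitted, 191 at an adjusted p under 0.01, 306 with the replicate block and 155 to 480 with 1 array left out. The cause of these moves was not tested. The replicate block changed no call of day 10 against growth among 368 named genes. Of the 357 named genes called, 308 kept their call in each setting in which they were tested, and 3 lost it only when an array was left out. Of 368 named genes 334 were tested with the filter at log2 6 and 356 without the probe sets that may bind several transcripts. Values under 4 set to 4 ended the most calls of the other settings, 22. Of 1880 counts of list members called higher or lower under another setting, 50 differed from the reported count by more than 1.5 times, mostly small counts. With no minimum difference 18 genes of the respiratory chain and mitochondria list were higher and 7 lower. Leaving out growth replicate B left no ribosomal protein called lower. Synpo2l reversed to -0.11 log2 without the probe sets that may bind several transcripts. Signals under log2 4 cannot be told from background, which limits what can be said of dim genes.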
